A study of Mus musculus with 12 samples.

Results

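The comparison described here sets GFP+ against GFP- mouse embryonic stem cells (ESCs) after 7 days in 2i, gene by gene. In a pooled screen each gene of the kinase library is targeted by several short hairpin RNAs (shRNAs, here hairpins), and the question is which genes have hairpins that shift together between the sorted populations. A hairpin was tested where it reached at least 0.5 CPM (counts scaled to the size of the library) in at least 3 of the 6 sorted libraries, and a gene was included where at least 3 of its hairpins were tested. This left 558 of the 732 gene symbols in the table, with 2327 of the 2600 tested hairpins. There were 157 genes with 3 tested hairpins, 185 with 4, 200 with 5 and 16 with 6 or more, up to 9. A further 162 symbols had only 1 or 2 tested hairpins, 12 had none, and neither set was summarised per gene.

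The cells were E14 mouse ESCs carrying a UHRF1-GFP transgene, so that GFP fluorescence was an indirect measure of UHRF1 protein in 1 cell line. Cells in Serum/LIF medium received the TRC lentiviral mouse kinase library, were selected with puromycin, and were then kept in Serum/LIF or moved to 2i, a serum-free medium with LIF, the MEK inhibitor PD0325901 and the GSK3 inhibitor CHIR99021. The 2i cells were sorted by fluorescence into 2i GFP- and 2i GFP+, each with 3 libraries named A, B and C, and the other 6 libraries came from unsorted Serum/LIF cells at day 0 and day 7. All 4 groups carried the same library and the same transgene, and the counts are of hairpins amplified from genomic DNA. The sources give triplicate culture for the 7 days, whereas no label ties a replicate letter to a culture, so the spread between libraries may be partly technical.

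UHRF1 brings the maintenance DNA methyltransferase DNMT1 to newly replicated DNA, and its protein is lost when mouse ESCs move from Serum/LIF to the naive state in 2i. The sort divided the cells by how much of the fusion protein remained, and hairpin frequencies are compared between the resulting populations. Not every hairpin silences its target, and a hairpin can act on other transcripts, which is why screens of this kind are usually read over several hairpins per gene.

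Sequences were given for the hairpins of 4 of these genes. The pairs with capitals below are shown because agreement between hairpins of a gene means less where the hairpins are nearly the same molecule. Those of Csnk2b and Nags have no such run and are shown for contrast. They are mature antisense strands of 21 bases, written 5′ to 3′, and capitals mark a run of 20 bases shared with another hairpin of the same gene. Sephs2 lies on chromosome 7, Prpsap2 and Nags on chromosome 11 and Csnk2b on chromosome 17. Where in each transcript the hairpins bind was not determined here.
Sephs2 TRCN0000075759: tAGAACTTCAATAACGCGAGG
Sephs2 TRCN0000075761: AGAACTTCAATAACGCGAGGc
Prpsap2 TRCN0000075710: TTGCACATCATAGAAGCCAGc
Prpsap2 TRCN0000075711: tTTGCACATCATAGAAGCCAG
Prpsap2 TRCN0000075709: AATGTCATCCACAATGATGGc
Prpsap2 TRCN0000075712: tAATGTCATCCACAATGATGG
Csnk2b TRCN0000025055: aagaattcattaccacggagc
Csnk2b TRCN0000025056: ttccaggtctaagatcatgtc
Nags TRCN0000076076: ttggcatgattgactagttcg
The hairpins in each capitalised pair are offset by 1 base and address the same site. The longest run that any 2 hairpins of Nags shared was 6 bases, and for Csnk2b it was 5. The count table names hairpins by number and gene only, with consecutive numbers within each of these genes, and the sources used here do not say which number is which clone. If the numbers follow the order of the clones, the Csnk2b and Nags sequences shown belong to hairpins called enriched in GFP+ below.

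Total counts of the 6 sorted libraries ran from 2435551 to 4656234. Of the 2600 tested hairpins, the GFP- libraries held 2575 to 2580, whereas GFP+ A, B and C held 1854, 1521 and 1892. GFP+ B also stood apart in its gene totals, with a Spearman correlation over genes of 0.797 with A and 0.793 with C, against 0.988 between A and C and 0.970 to 0.983 among GFP- libraries. No pair of libraries was alike within sampling noise. TMM scaling factors were 1.27 to 1.31 in GFP- and 0.677 to 0.831 in GFP+, so that a hairpin holding the same share of the reads in both groups was assigned a higher scaled level in GFP+.

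Most genes leaned towards lower hairpin levels in GFP+ cells, and the hairpins of a gene seldom moved together. The log2 fold change (GFP+ over GFP-) of a gene was taken as the median over its tested hairpins, with a median over the 558 genes of -0.93 and quartiles of -2.55 and 0.09. The median of all tested hairpins was -0.88. The gene median was above 0 for 155 genes (27.8%) and below 0 for 403, above 1 for 47 and below -1 for 269. Each tested hairpin was above 0 for 10 genes and below 0 for 110, while 438 genes (78.5%) had hairpins on both sides. Counted around the median of all hairpins instead of 0, 34 genes had each hairpin above and 50 each below. Within a gene, the range between its highest and lowest hairpin had a median of 9.40 log2 units, or 5.74 with hairpins at 0 counts placed at the floor of 3 counts per library. Of the variance in log2 fold change among the hairpins of these genes, 4.30% lay between genes, and 9.89% over the 1176 hairpins that passed the filter in both groups.

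**Figure D1:**
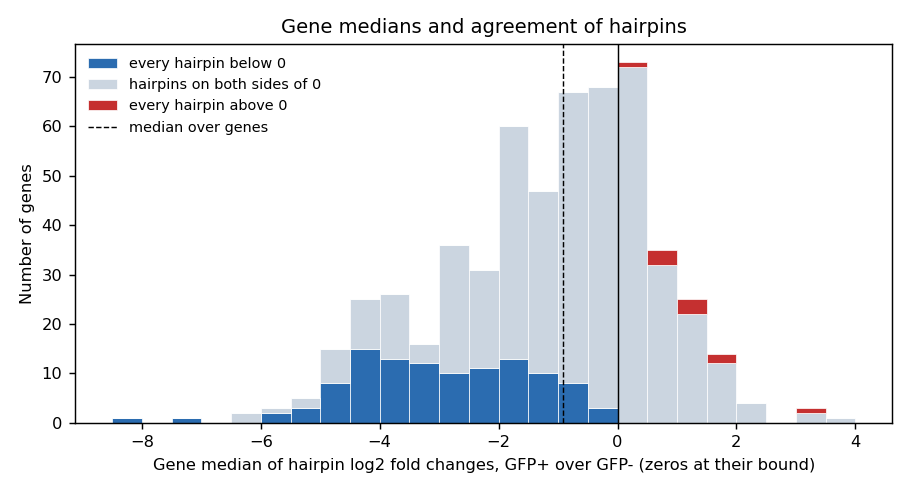
Number of genes by the median log2 fold change of their tested hairpins, GFP+ over GFP-, in bins of 0.5, with hairpins that had no count in GFP+ placed at their bound. Colours give genes with each hairpin below 0 (110), on both sides (438) or above 0 (10), and the dashed line at -0.92 is the median over genes.

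With an adjusted p under 0.05 (edgeR, Benjamini-Hochberg) and a log2 fold change beyond 1 in either direction as the limits, 223 (8.58%) of the tested hairpins were enriched in GFP+ and 610 (23.5%) depleted. These counts were 401 and 1002 without GFP+ B, and the enriched ones numbered 131, 138 and 129 without GFP- A, B and C. Among the 558 genes, 169 had at least 1 enriched hairpin and 384 at least 1 depleted. Of these, 98 had at least 1 of each, 71 had enriched ones only, 286 had depleted ones only, and 103 genes had neither. There were 28 genes with at least 2 enriched hairpins and 8 with at least 3, against 123 and 22 for depleted ones. No gene had each of its tested hairpins enriched, and 4 (Cdk5r1, Git2, Nek9 and Prkce) had each depleted. The depleted counts may follow in part from the filter. Of the 2327 hairpins, 1084 reached its level in each GFP- library but not in all 3 GFP+ libraries. These would have passed without any count in GFP+, but the filter did not require them to be lower there. Among all tested hairpins, 512 of the 610 depleted ones had passed this way, whereas 220 of the 223 enriched ones had passed in both groups. The counts of depleted hairpins and of genes that were lower, with their p-values, are therefore given as descriptions.

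For a test over libraries rather than hairpins, each gene was given 1 value per library, the median over its hairpins of log2(CPM + 5) after each hairpin was centred on its own mean. Genes were called at an adjusted p (limma, Benjamini-Hochberg) under 0.05 and a difference over 1 or under -1 on this scale, which understates the change of hairpins near 0. By this test 15 genes (2.69%) were higher in GFP+, 252 (45.2%) were lower and 291 were not called. The median difference over the 558 genes was -1.22. With each library centred on its median gene, 84 genes were higher and 88 lower, and the 15 were among the 84. The 3 GFP+ libraries lay above the 3 GFP- libraries for 34 genes and below them for 318, and the groups overlapped for 206. The count of 15 was 33 when GFP+ B was left out, and 11 of the 15 were among the 33.

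**Figure D2:**
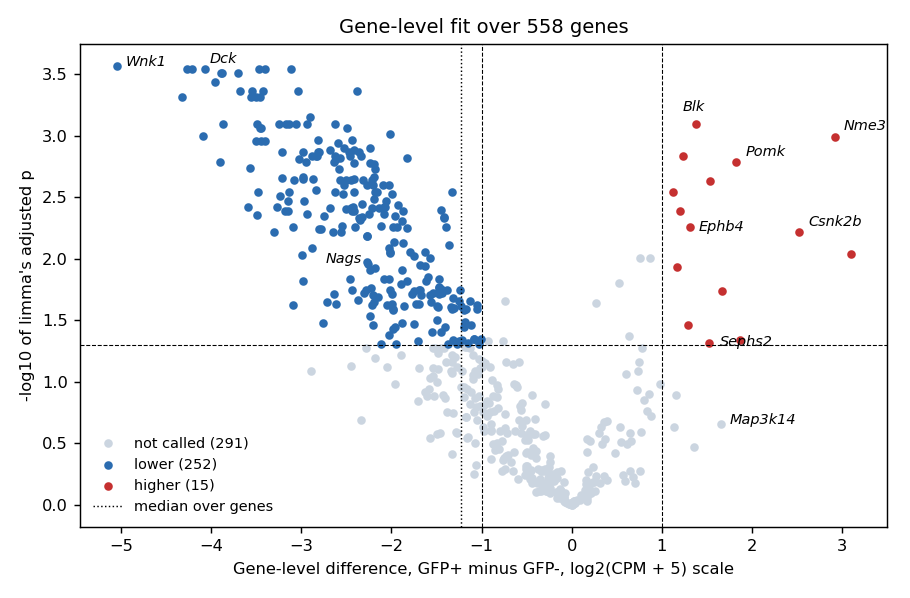
Gene-level difference, GFP+ minus GFP-, on the log2(CPM + 5) scale against -log10 of limma's adjusted p for 558 genes, with dashed lines at the thresholds and a dotted line at the median difference of -1.22. The 15 genes called higher lie on the right, with Nme3 at 2.92 and Csnk2b at 2.53 among them, and the 252 called lower on the left.

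The nucleoside diphosphate kinase Nme3, which transfers phosphate between nucleotides, and Pomk, which phosphorylates a mannose in the sugar chain of dystroglycan, were higher under each of the 23 alternative settings tried. These include the setting without a fold limit, which repeats the main gene-level fit and so could not differ. The summed level of the 4 tested Nme3 hairpins was 265, 359 and 306 CPM in GFP- A, B and C, and 3427, 4461 and 3372 CPM in GFP+. The gene-level difference was 2.92 ± 0.37 (SE, adjusted p = 0.00102). Of the Nme3 hairpins, number 2181 had 140 to 159 CPM in GFP- and 1594 to 2687 in GFP+, number 2183 had 15.1 to 48.8 and 307 to 2219, and number 2185 had 37.6 to 80.9 and 324 to 648. All 3 were enriched, with log2 fold changes of 3.94, 5.16 and 2.82. The fourth, number 2182, was at -1.42 ± 1.64 (SE) and was not called. Number 2184, with 19 counts over GFP- and none over GFP+, did not pass the filter and was not tested. Without its top hairpin Nme3 had a difference of 2.53.

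Pomk, listed in the table under its former symbol 4930444A02RIK, was the gene with the most enriched hairpins, 4 of 5. Its summed level was 1192, 1345 and 1330 CPM in GFP- and 3707, 6294 and 4057 CPM in GFP+, a gene-level difference of 1.83 ± 0.27 (SE, adjusted p = 0.00164). The 5 hairpins had log2 fold changes of 0.80, 1.61, 1.89, 2.38 and 2.75, the lowest being the 1 not called. The most abundant of them held 36.8% of the summed GFP+ level, less than for any other gene called higher. Without its top hairpin Pomk was at 1.68.

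Ephb4, a receptor tyrosine kinase for ephrin-B ligands, also had each of its 5 hairpins above 0, from 0.81 to 2.90, with 2 enriched. Its level was 2701 to 3145 CPM in GFP- and 6790, 11987 and 6590 CPM in GFP+ A, B and C, so that GFP+ B was the highest. The gene-level difference was 1.31 ± 0.27 (SE, adjusted p = 0.00557). It was 1.00 (adjusted p = 0.0458) without its top hairpin, and 0.99, just under the fold limit, without GFP+ B. Ephb4, Nme3 and Pomk were the 3 of the 15 genes still called when the hairpin that moved a gene most was dropped. That alternative was added with the calls known, and it lowers the median of any gene called higher.

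Csnk2b, the regulatory subunit of casein kinase 2 (CK2), had the highest gene median, 3.56. Its summed level was 914, 901 and 806 CPM in GFP- and 10626, 9158 and 9580 CPM in GFP+, and the gene-level difference was 2.53 ± 0.53 (SE, adjusted p = 0.00613). Hairpin 1932 rose from 767 to 853 CPM in GFP- to 8181 to 9126 CPM in GFP+ and made up 87.5% of the GFP+ level. Hairpin 1933 rose from 17.1 to 48.8 CPM to 414 to 1500 CPM, while number 1934 was at 3.73 ± 2.65 (SE) and not called. Number 1931 had 178 counts over GFP- and none over GFP+, at least 13.5-fold lower. Without the top hairpin the difference was 1.43 with an adjusted p of 0.30. The catalytic subunits of CK2, Csnk2a1 and Csnk2a2, were not called (0.76 ± 0.93 and 0.36 ± 0.22, SE). Csnk2a1 had a median of 2.20 with 1648 and 1495 CPM in GFP+ A and C but 430 in B, against 244 to 317 CPM in GFP-.

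Kinases of inositol phosphates and phosphoinositides, a list of 13 tested genes, gave 3 of the 15 genes, where 2.69% of all 558 genes were higher. Ippk, which makes inositol hexakisphosphate, had 1838 to 2036 CPM in GFP- and 7233, 17693 and 6452 CPM in GFP+ (difference 1.54 ± 0.25, SE, adjusted p = 0.00234). Its 5 hairpins ran from 3 enriched ones at 1.51, 2.40 and 3.34 to number 2281, which had 517 counts in GFP- and none in GFP+. Itpka, which phosphorylates inositol trisphosphate, had 967 to 1046 CPM in GFP- and 3546, 9096 and 3614 CPM in GFP+ (1.29 ± 0.41, adjusted p = 0.0349), with 3 of 5 hairpins enriched and 1 depleted. Pip5k1a, which makes phosphatidylinositol bisphosphate, had 9428 to 10472 CPM in GFP- and 23587 to 24823 CPM in GFP+ (1.13 ± 0.19, adjusted p = 0.0029), and 1 of its 4 hairpins held 82.1% of the GFP+ level. For Ippk and Itpka the GFP+ libraries were uneven, with B above A and C. In the same list of 13 tested genes, 6 were lower, close to the 45.2% lower among all 558 genes. These 6 included Ip6k2, Itpk1, Pi4ka and Pi4kb at -4.21, -3.68, -3.57 and -2.37.

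Pik3cb, the p110 beta catalytic subunit of phosphatidylinositol 3-kinase, had 5919 to 6757 CPM in GFP- and 37543, 59182 and 37463 CPM in GFP+ (1.17 ± 0.28, SE, adjusted p = 0.0116). Hairpin 1776 accounted for 80.2% of the GFP+ level, and 2 others were enriched at 1.22 and 2.30. Hairpin 1775 stood against them, with 248 to 290 CPM in each GFP- library and no count in GFP+, at least 237-fold lower. Blk, a SRC family kinase of B cells, had 3499 to 4133 CPM in GFP- and 26391, 19820 and 25647 CPM in GFP+ (1.38 ± 0.16, SE, adjusted p = 0.000801). Its hairpins were at 3.15, 2.40 and 1.43, and 1 was depleted at -2.85. Tlk1, a nuclear kinase of histone chaperones, had hairpins at 2.93, 1.82, 1.62, 0.38 and -2.28 (1.24 ± 0.17, SE, adjusted p = 0.00145), and its relative Tlk2 had each of its 4 above 0 without a gene-level call (0.80 ± 0.41, SE).

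Among other genes called higher, the potassium channel gene Kcnh2, one of the non-kinase targets of the library, had 3 of 5 hairpins enriched and 1 with no count in GFP+ (1.20 ± 0.23, SE, adjusted p = 0.00408). The serine kinase gene Pskh1 had 760 to 832 CPM in GFP- and 1534, 4037 and 1467 CPM in GFP+ (1.87 ± 0.64, SE, adjusted p = 0.0455), GFP+ B being the highest. Its hairpin 1633 had 1 count over GFP- and 1028 over GFP+, so that the fold change of that hairpin rests on 1 count in GFP-. With 1 count in GFP-, that hairpin could pass the filter only through GFP+ and so had to be higher there. Without its top hairpin Pskh1 was at 0.94 (adjusted p = 0.364). Sephs2, which makes the selenium donor for selenoproteins, had 842 to 893 CPM in GFP- and 4164, 5359 and 4051 CPM in GFP+ (1.53 ± 0.54, SE, adjusted p = 0.0485). Of the 15 genes, 8 had a depleted hairpin beside enriched ones. Of the 13 described here, Blk, Csnk2b, Ippk, Nme3, Pomk and Tlk1 kept the call with any of the 6 libraries left out, and the other 7 lost it in at least 1 such fit. Ephb4 and Pip5k1a kept it in 5 of the 6 fits, Kcnh2 in 4, Pik3cb and Pskh1 in 3, and Itpka and Sephs2 in 2.

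**Figure D3:**
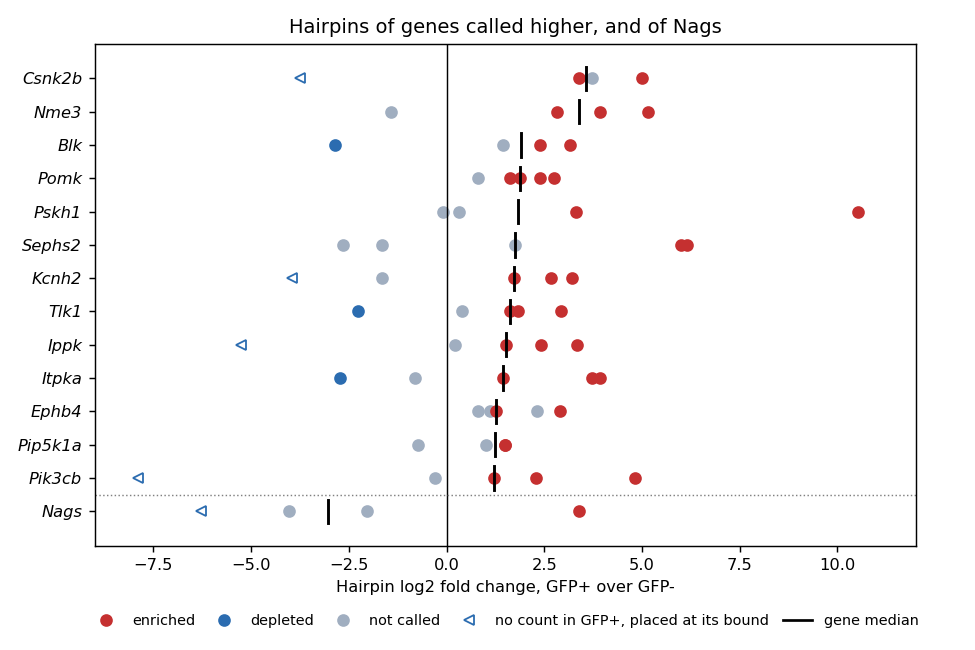
Log2 fold change, GFP+ over GFP-, of each tested hairpin of 13 of the 15 genes called higher, in order of their medians (black bars), with Nags below the dotted line. Red points are enriched, blue depleted and grey not called, and open triangles are hairpins with no count in GFP+ at their bound. The point of Pskh1 at the far right has 1 count in GFP-. Pomk and Ephb4 are the genes plotted with no hairpin below 0, whereas 7 of the 13 have a depleted one, as do 384 of all 558 genes.

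The sequences printed above bear on Sephs2 and Prpsap2. Hairpins 2951 and 2953 of Sephs2 were enriched at 6.16 and 5.99, and had 8.14 to 8.70 and 42.9 to 59.3 CPM in GFP- against 579 to 622 and 3141 to 3324 CPM in GFP+. Number 2950 was at 1.75, and numbers 2954 and 2952 at -1.66 and -2.64, none of them called. If the numbers follow the order of the clones, which is not stated, the 2 enriched hairpins are the pair that shares 20 bases. Counted as 1 hairpin with their mean, they leave Sephs2 with 4 hairpins and a median of 0.05 in place of 1.75. Prpsap2, a regulatory partner of the enzyme that makes phosphoribosyl pyrophosphate, had hairpins 2947 and 2948 enriched at 3.65 and 4.14, and in the same order these too are a pair that shares 20 bases. Its gene-level difference was 0.21 ± 0.66 (SE), with a median of -0.13, or -0.63 over 3 hairpins with both pairs counted as 1.

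Nags, the mitochondrial enzyme that makes N-acetylglutamate for the urea cycle, was called lower although its summed level was higher in GFP+. The sum over its 4 tested hairpins was 522, 558 and 511 CPM in GFP- and 3696, 4171 and 4222 CPM in GFP+, and hairpin 2968 alone held 99.8% of the GFP+ level. That hairpin was enriched at 3.38, with 320 to 423 CPM in GFP- and 3693 to 4199 CPM in GFP+. Number 2965 had 1025 counts in GFP- and none in GFP+, and numbers 2967 and 2969 were at -2.05 ± 1.55 and -4.02 ± 1.76 (SE), not called. The median over hairpins gave a gene-level difference of -2.03 ± 0.45 (SE, adjusted p = 0.00823). With counts summed over hairpins it was 2.75 (adjusted p = 0.000132).

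Gene medians above 1.8 also occurred without a call where the gene values of the GFP+ libraries disagreed. Map3k14, the kinase NIK of non-canonical NF-kappa-B signalling, had the median of 3.19 and each of 3 hairpins above 0, but 1223 and 1396 CPM in GFP+ A and C and 336 in B, against 190 to 427 CPM in GFP- (adjusted p = 0.221). The other 6 of the 12 highest medians that were not called were Dusp9, Csnk2a1, Mark2, Stk11, Mapk8ip1 and Stk4, with medians of 1.84 to 2.29. Their gene values overlapped between the groups, GFP+ B being the lowest GFP+ library for each, whereas their summed levels did not overlap and were higher in GFP+. Mark2, a kinase of microtubule-associated proteins, had 448, 455 and 521 CPM in GFP- and 27537, 26625 and 27014 CPM in GFP+, of which hairpin 1345 held 97.5%. The other Mark2 hairpins, numbers 1347 and 1346, were at 2.19 ± 1.86 and -3.51 ± 1.89 (SE), not called. With counts summed over hairpins Mark2 was higher at 5.66 (edgeR, adjusted p = 2.96e-06), and so were Csnk2a1, Stk4, Dusp9 and Mapk8ip1, at 1.88, 1.67, 1.59 and 1.41. Adpgk, an ADP-dependent glucokinase, had each of 5 hairpins above 0, from 0.77 to 1.92, while its gene value was 2.58 in GFP+ B, 0.14 in A and -0.70 in C, against -0.05 to 0.07 in GFP- (adjusted p = 0.528). Other genes with each hairpin above 0 were Pim1, Tlk2, Epha3 and Mapk8ip3, at medians of 1.46, 0.93, 0.68 and 0.44, none of them called.

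Among the genes lower in GFP+, the smallest p belonged to Wnk1, a kinase that controls ion transport. Its 4 hairpins summed to 662, 586 and 702 CPM in GFP-, and to 0, 116 and 0.259 CPM in GFP+, the 116 CPM all coming from hairpin 2573 in replicate B. The gene-level difference was -5.05 ± 0.32 (SE). All 4 hairpins reached the level of the filter in each GFP- library, and none did so in all 3 GFP+ libraries. They would thus have passed without any count in GFP+. Dck, a salvage kinase for deoxynucleosides, had 368, 465 and 261 CPM in GFP- and 22.9, 74.1 and 16.8 CPM in GFP+ (-4.07 ± 0.30, SE). The others among the 8 with the smallest p were Fer, Ip6k2, Csnk1d, Cdkn2b, Mak and Mknk1, at -4.27 to -3.11, and in each of them the groups stood apart. With hairpins chosen on Serum/LIF day 0 instead, 7 of the 8 were still called lower. Wnk1 was at -4.62 (limma, adjusted p = 0.000417), and Ip6k2 was not called (-1.24, adjusted p = 0.154). Of the sorted libraries, that filter asked only that they held any count of the hairpin. Of the 252 genes called lower, 18 had a summed level above that of each GFP- library in each GFP+ library, Nags among them, and 5 had a gene median above 0. For Ip6k2, 2 of 3 hairpins had no count in GFP+, and the third had 194, 599 and 213 CPM there, with 69.4 CPM in GFP- B and under 0.3 CPM in GFP- A and C.

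The 4 genes with each hairpin depleted had low levels in GFP- as well. Git2, which encodes an ARF GTPase-activating protein, had 127, 170 and 201 CPM summed over 4 hairpins in GFP- and no count in GFP+, and its most frequent hairpin was at least 89.3-fold lower. Prkce, protein kinase C epsilon, had 92.8, 210 and 108 CPM in GFP- over 4 hairpins and no count in GFP+. Nek9 and Cdk5r1 had 3 hairpins each, likewise with no count in GFP+. With hairpins at 0 placed at their bound, the lowest gene median of all was -8.28, for the tyrosine kinase gene Fer.

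**Figure D4:**
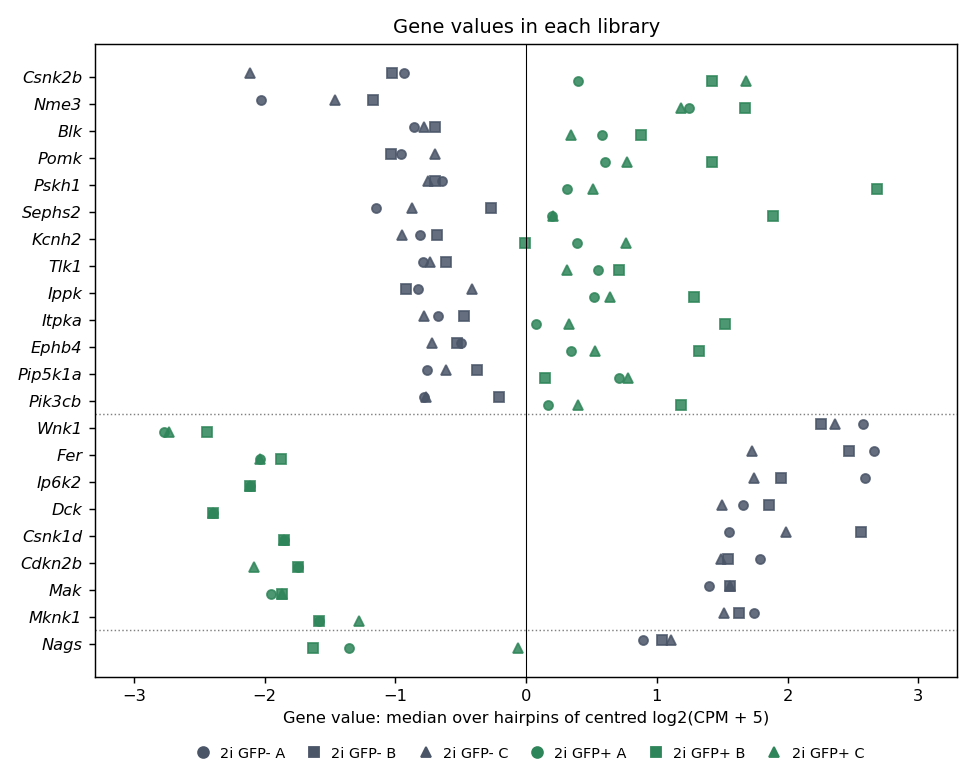
Gene value in each library, the median over hairpins of centred log2(CPM + 5), for 13 of the 15 genes called higher, the 8 called lower with the smallest p, and Nags. Symbols give the replicate and colours the group. The groups stand apart in each row, with GFP+ B above GFP+ A and C for Ephb4, Itpka, Pik3cb, Pskh1 and Sephs2, and the GFP+ points of several lower genes coincide where the median hairpin had no count.

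Opposite calls within a gene were widest for genes such as Irak1, Cdk9, Pkig and Cdk20. Irak1, a kinase of interleukin-1 and Toll-like receptor signalling, had 7 tested hairpins, with number 32 at 844 counts in GFP- and none in GFP+, number 2825 at 1 count in GFP- and 194 in GFP+, and 5 others that were not called. With 1 count in GFP-, number 2825 could pass the filter only through GFP+ and so had to be higher there. The width of the Irak1 range thus rests on hairpins at or near 0 in a group. Its gene-level difference was -0.05 ± 0.72 (SE). Pkig, an inhibitor of protein kinase A (PKA), had 1 hairpin at 6.03 that held 92.8% of its GFP+ level and another with no count in GFP+ (-0.34 ± 0.86, SE). For Cdk9, the kinase of the elongation factor P-TEFb, 1 hairpin held 99.1% of the GFP+ level at 5.55, and the gene was lower (-2.16 ± 0.37, SE, adjusted p = 0.0029). In all, 24 of the 252 genes called lower had an enriched hairpin, and 23 had no depleted one.

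The gene groups are given by their counts beside the 2.69% higher and 45.2% lower among all 558 genes and the median difference of -1.22. In the RAF-MEK-ERK cascade, which carries FGF signals and contains the targets of PD0325901, 5 of 7 tested genes were lower and none higher, with a median of -2.35. Mos was at -3.40, Map2k1 at -2.35 and Map2k2 at -2.02, while Araf (-0.63) and Ksr1 (-0.40) were not called. Among FGF receptors and JAK kinases, Fgfr1, Fgfr2 and Tyk2 were lower and Jak2 (-0.08) was not called. Tyk2 was at -2.08 by the gene-level fit but had a gene median of 0.84, with 2 of its 3 hairpins above 0. Gsk3b, the kinase inhibited by CHIR99021, was at -0.40 ± 0.28 (SE) and not called.

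Of 11 SRC family and CSK kinases, 8 were lower, Csk and Lck at -3.87 and -3.54 among them, and Blk was the only one higher. Of 10 Eph receptors 1 was higher and 2 were lower, with a median of -0.18, and Epha3, Epha8, Epha6 and Ephb2 were at 0.66, 0.27, 0.17 and 0.15, not called. Among TGF-beta, activin and BMP receptors, 2 of 9 were lower, Tgfbr2 and Acvr2a, and the median was -0.31. Of 30 cyclin-dependent kinases, cyclins and their inhibitors 14 were lower and none higher, with a median of -1.36, and of 14 mitotic and DNA damage kinases 5 were lower and Tlk1 higher.

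Nme3 was the only gene called higher in the lists of glucose and nucleotide metabolism. Of 13 kinases of glycolysis and hexoses none was higher, and Hk2, Pfkfb4, Pklr and Gk were lower at -1.89, -2.12, -2.18 and -2.43. The phosphofructokinases Pfkm and Pfkl were at -0.08 ± 0.60 and -0.57 ± 0.31 (SE), not called. Of 21 genes of phosphoribosyl pyrophosphate, ribose and nucleotide kinases Nme3 was higher and 9 were lower, from Nme5 at -1.37 to Dck at -4.07. Nme1 (-1.50), Nme6 (-0.61) and Nme7 (-0.73), relatives of Nme3, were not called, and Nme4 (-1.40) was lower. In the pyruvate dehydrogenase kinase list, Pdk2 was lower and Pdk1, Pdk3 and Bckdk were not called.

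In the PKA list of 9 genes, 4 were lower (Prkar1b, Prkar2b, Prkx and Pkib) and none higher. The catalytic subunit Prkaca was at 0.21 ± 0.16 and the regulatory subunits Prkar1a and Prkar2a at -1.22 ± 0.57 and -0.86 ± 0.48 (SE), each with 1 enriched hairpin, and none was called. With counts summed over hairpins Prkar1a and Prkar2a were higher, at 1.24 and 1.79 (edgeR, adjusted p = 0.0275 and 0.0127). Pkia, an inhibitor of PKA, had an adjusted p of 0.00984 at a difference of 0.76, under the fold limit. In the AKT, mTOR, S6 kinase and SGK list, Mtor was at 0.77 ± 0.53 (SE), not called, and Akt2, Rps6kb1 and Rps6kb2 were lower at -1.57, -2.32 and -1.45. Of 10 phosphatidylinositol 3-kinase genes, Pik3cb was higher and Pik3c2g and Pik3c3 lower. Ripk3, a kinase of necroptosis, was at 0.27 ± 0.08 (SE, adjusted p = 0.023), under the fold limit, and the list of 11 RIPK, IRAK and IKK kinases held 3 lower genes and none higher.

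The other lists were alike in having no gene called higher, except for casein kinase 2, where Csnk2b was 1 of 3, the non-kinase targets, where Kcnh2 was 1 of 20, and the selenophosphate synthetases, where Sephs1 was at 1.13 ± 0.73 (SE) beside Sephs2. The numbers of genes lower were 4 of 6 in casein kinase 1 and tau tubulin kinases, 5 of 8 in stress-activated MAP kinases, 4 of 8 in AMPK subunits and upstream kinases, 2 of 9 in AMPK-related kinases, 5 of 12 in ribosome assembly and translation kinases, and 3 of 5 in natriuretic receptors, guanylate cyclases and PRKG. Among them were Csnk1d at -3.89, Mapk10 at -3.89, Camkk2 at -3.51, Mknk1 at -3.11 and Prkg1 at -2.57. Mapk10, the kinase JNK3, had a summed level of 1100 to 1360 CPM in GFP- and 2660 to 3676 CPM in GFP+, where hairpin 144, enriched at 2.36, held 99.6%.

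**Figure D5:**
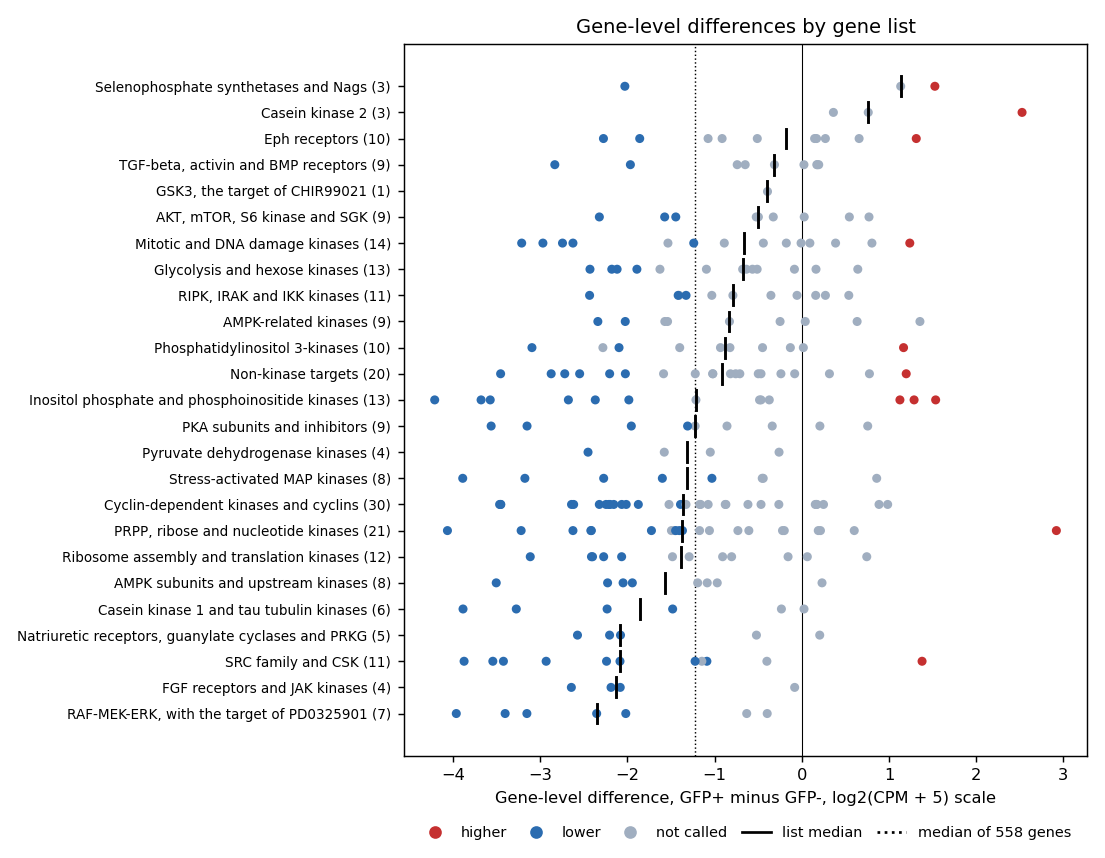
Gene-level difference, GFP+ minus GFP-, for each tested gene of 25 lists, with the number of tested genes in parentheses, black bars at list medians and a dotted line at the median of 558 genes. Lists are ordered by median, from the selenophosphate synthetases with Nags at 1.13 and casein kinase 2 at 0.76 down to RAF-MEK-ERK at -2.35.

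The direction of a gene moved with how frequent its hairpins were before the sort. Divided into equal groups of 186 genes by their summed level at Serum/LIF day 0, the least frequent (25.8 to 690 CPM) had 112 genes lower (60.2%) and 3 higher, the middle group 83 lower (44.6%) and 3 higher, and the most frequent (1500 to 13300 CPM) 57 lower (30.6%) and 9 higher. Their median gene log2 fold changes were -1.98, -1.14 and -0.28. Per hairpin, 37.9% of the 520 least frequent at day 0 had no count in GFP+, against 0.962% of the 520 most frequent, and 26 and 77 of them were enriched. The part of starting frequency in the calls was not tested.

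Scaled over all 12 libraries, the summed Nme3 hairpins were at 401 CPM at Serum/LIF day 0 (368 to 420), 522 at day 7 (497 to 547), 366 in GFP- and 4275 in GFP+. Pomk was at 1772, 1818, 1523 and 5317 CPM in the same order, so that for both genes GFP+ stood apart from the other 3 groups. Csnk2b differed in that it also moved in Serum/LIF, with 2639 CPM at day 0 (2323 to 2981), 464 at day 7 (456 to 475), 1032 in GFP- and 11218 in GFP+. Nags was at 411, 808, 626 and 4611 CPM, and Git2 at 247, 275, 196 and 0 CPM.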

How the data were processed

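Hairpins integrated in genomic DNA were amplified by PCR without molecular identifiers and sequenced on a NextSeq 500. The authors aligned the reads with Bowtie2 (standard settings), tallied them by hairpin in Python, and deposited whole-number counts with no normalization. Tool versions were not given in the sources used here, nor was the hairpin reference. The titles call the libraries combined without explaining the word. Of the table's symbols, 660 matched a mouse gene by symbol (RefSeq, GRCm38.p6), 66 by synonym and 6 not at all. No column was left out.

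The 6 sorted libraries were fitted alone in R 4.3.3 with edgeR 4.0.16 (TMM, glmQLFit, glmQLFTest, prior count 0.125, no covariate). Gene values were fitted with limma 3.58.1 (lmFit, eBayes with a trend on level). A hairpin with no count in a group was placed at a floor of 3 counts in each of its libraries for bounds. Standard errors reflect the spread between libraries as estimated by each fit, which draws in part on all hairpins or genes. Floors cover counting error only. Summed levels are CPM with the TMM factors of the 6 libraries, or of all 12 where stated. Both fits were tried on simulated counts with known changes. These were drawn from GFP- levels with the same dispersion in both groups. They lacked the many absent hairpins and the uneven GFP+ B of the data, so they do not show how the fits behave there.

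Same-lettered GFP+ and GFP- libraries did not deviate together (correlations over genes of 0.0002, 0.05 and 0.06), so letters were not used as pairs. Alternatives were other scalings (RLE, TMMwsp, total counts), filters, pseudocounts, summaries over hairpins, tests (exactTest, which the methods name, and DESeq2 1.42.0), a replicate block and leaving out each library. Genes and lists were chosen with earlier results of these data known. Genes were named by rule: the 12 highest and 12 lowest medians, the 8 smallest p in each direction, genes with each hairpin above 0, the 8 widest ranges with opposite calls, genes with at least 3 enriched hairpins, 20 genes of interest to the study where tested, and up to 3 per list far from the median. The rest of the 15 higher genes and the other list members given were named after their values were seen. Counts cover all genes tested, and some genes are not reported here by name.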

Additional observations from a re-analysis of the deposited data

How the results depend on the processing

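Scaled by total counts alone, 124 hairpins were enriched, 4 genes were higher and 360 lower, the median over genes fell from -0.93 to -1.64, and 5 and 200 genes had each hairpin above or below 0. With RLE factors the median was -1.06, with 12 genes higher and 267 lower. Without a filter the median was -1.56, and 6 genes had each hairpin above 0. Over fits that left out 1 library, enriched hairpins ran from 129 (131, 138 and 129 without GFP- A, B and C) to 401 (without GFP+ B), depleted ones from 512 to 1002 (the latter without GFP+ B), and genes higher from 10 to 33, the 33 again without GFP+ B. Genes lower ran from 171 to 268 and the median from -1.16 to -0.91.

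With the replicate letter as a block (replicate block), 66 hairpins were enriched and 1 depleted, the median was -1.69 and 5 genes had each hairpin above 0, while 15 genes were higher and 240 lower. No label says whether a letter pairs a GFP+ with a GFP- library, and the cause of these changes was not tested. Counts summed over hairpins gave 78 genes higher and 67 lower, with 14 of the 15 kept. A sum gives most weight to the most frequent hairpin, and this setting also used edgeR in place of limma. Which of these moved the counts was not tested. The mean over hairpins gave 9 higher, of which 8 were among the 15. Centring on the median gene gave 84 higher and 88 lower. Among genes with at least 4 hairpins, 5 and 58 had each hairpin above or below 0, fewer genes being tested. Around the median of all hairpins these numbers were 34 and 50, and without the top hairpin 3 genes were higher and 105 lower.

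Of the 44 genes followed through the alternatives, signs turned with a call in either fit for Ip6k2 (0.35), Nags (2.75), Pkig (3.20), Prkar1a (1.24), Prkar2a (1.79) and Stk4 (1.67) with summed counts, for Pkig (1.06, the range with 1 library left out being -1.20 to 1.06) and Stk4 (1.39, range -0.74 to 1.39) without GFP+ B, for Sephs2 (-0.065) with hairpins chosen on Serum/LIF day 0, and for Ip6k2 (0.059) and Sephs2 (-0.17) without the top hairpin. The day 0 filter, the centre on all hairpins and the dropped hairpin were chosen after seeing the data. With the day 0 filter 14 genes were higher and 212 lower of 517. Of the other values of single genes, 833 kept direction and side of the threshold, 55 changed sign without a call, 65 fell short of the threshold and 33 passed it. The 833 include the values without a fold limit, which repeat the main gene-level fit. Depth limits what can be told of hairpins near 0. In GFP+, 466 tested hairpins had no count. Total counts were 4185076 and 4656234 in GFP+ A and C and 2435551 in GFP+ B, against 2642014 to 3302331 in GFP-. The cause of the missing hairpins was not tested.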
